A study of Mus musculus with 20 samples.

Results

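The circadian clock genes described here are the 10 core genes of the mouse molecular clock: the period genes Per1, Per2 and Per3, the cryptochromes Cry1 and Cry2, the nuclear receptors Nr1d1 and Nr1d2, the output factor Dbp, and the activators Arntl and Clock. They are 10 of the 37620 genes with a row in the gene count table, and each symbol matched a single Ensembl gene. Per1 was chosen by its measured expression in these same mice, because its response to the drug ran in opposite directions in the 2 genotypes. The other 9 were taken by name as its partners in the clock, with earlier results of these data known. All Per1 values, those of its splice junctions included, are therefore a description with no p-value. Adjusted p-values are given for the other 9, and these are not a fully independent test.

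The study asked how a splicing modulator acts on blood-forming cells that carry a mutant splicing factor. RNA was taken from bulk bone marrow of 20 mice in 4 groups of 5: U2AF1(WT) with vehicle, U2AF1(WT) with sudemycin D6, U2AF1(S34F) with vehicle and U2AF1(S34F) with sudemycin D6. U2AF1 is the small subunit of the factor that recognises the AG at the end of an intron, S34F is its recurrent change in myelodysplastic syndromes, and sudemycin D6 is a small molecule that acts on the SF3B1 spliceosome complex. In every group the marrow came from pooled transgenic donors with the rtTA activator and a doxycycline-inducible U2AF1 transgene, and had been grafted into lethally irradiated, sex-matched wild-type recipients; donors and recipients were young adults at transplantation. All mice ate doxycycline chow for 7 days, and over the last 5 days received daily infusions of the drug or its cyclodextrin vehicle through a jugular catheter. The U2AF1(WT) mice are thus not untreated controls: they overexpress the normal protein. Non-haematopoietic cells in the marrow remain of recipient origin, and mice that share pooled donors are not fully independent. The mice were killed at a fixed interval after the last infusion, on the following day. The clock hour of harvest of each mouse is not given in the sources used here, and Per1, Nr1d1 and Dbp change with the time of day in most tissues. The part of harvest time in any group difference was not tested.

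In the mammalian clock, CLOCK and BMAL1 (the product of Arntl) bind E-box elements and switch on the Per and Cry genes, whose proteins return to the nucleus and inhibit CLOCK and BMAL1. Nr1d1 and Nr1d2 encode REV-ERB alpha and beta, which repress Arntl and form the other loop. Dbp is a direct CLOCK and BMAL1 target that drives output genes through D-box elements. Per1 is also an immediate early gene, rapidly induced by cyclic AMP and CREB, by serum and by glucocorticoids.

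The libraries held 41145892 to 62138138 gene-assigned counts (median 51836276), and levels are given as CPM, the standard unit of counts scaled to library depth. Reads from the transgenes were not examined, and the mouse gene U2af1 averaged 36.1, 42.7, 51.0 and 54.7 CPM in the order U2AF1(WT) vehicle, U2AF1(WT) drug, U2AF1(S34F) vehicle and U2AF1(S34F) drug. Xist counts ran from 39145 to 78640 where the transgene was U2AF1(WT) and from 1 to 8 where it was U2AF1(S34F), while the summed counts of Eif2s3y, Ddx3y, Kdm5d and Uty were 0 to 4 and 10270 to 15034. Genotype and sex pattern therefore coincide, and their parts in any difference between genotypes cannot be told apart. Comparisons of drug with vehicle are made within a genotype. Neutrophil genes (Elane, Mpo, Ltf, Camp, Mmp8 and S100a8) dominated the marker lists with a summed level of 28526 to 67820 CPM. In bulk RNA, fewer cells of a type and less RNA per cell cannot be told apart.

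All 10 clock genes were expressed in every mouse and passed the filter on low counts in every comparison. Per kilobase of exon, Cry1 had the highest mean level over the 20 mice (12.02 CPM per kilobase ± 0.80, SD), followed by Per1 (7.51 ± 5.99), Per2 (5.08 ± 1.07), Clock (3.02 ± 0.50), Cry2 (2.48 ± 0.43), Nr1d2 (2.20 ± 0.50), Arntl (1.82 ± 0.33), Per3 (1.49 ± 0.26), Dbp (1.13 ± 0.26) and Nr1d1 (0.436 ± 0.17). The ranges over mice of each of these neighbours overlapped, except that Dbp and Nr1d1 overlapped only between 0.666 and 0.861 CPM per kilobase. The place of Per1 in this order depended on the group: it averaged 15.6 CPM per kilobase in U2AF1(WT) with vehicle, the highest of the 10, 8.03 in U2AF1(WT) with sudemycin D6, 2.38 in U2AF1(S34F) with vehicle and 3.996 in U2AF1(S34F) with sudemycin D6. In U2AF1(S34F) with vehicle it lay below Per2 (4.39) and Clock (2.64) as well as Cry1. Cry1 was the steadiest, varying by 1.29 times between its lowest and highest mouse (32.6 to 42.0 CPM). Per1 was the most variable, at 12.2 times (10.8 to 131 CPM), against 3.99 times for Nr1d1 and at most 2.42 times for each of the other members. Nr1d1 rested on 34 to 143 reads a mouse and Dbp on 104 to 252, so their values carry the largest counting error.

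**Figure D1:**
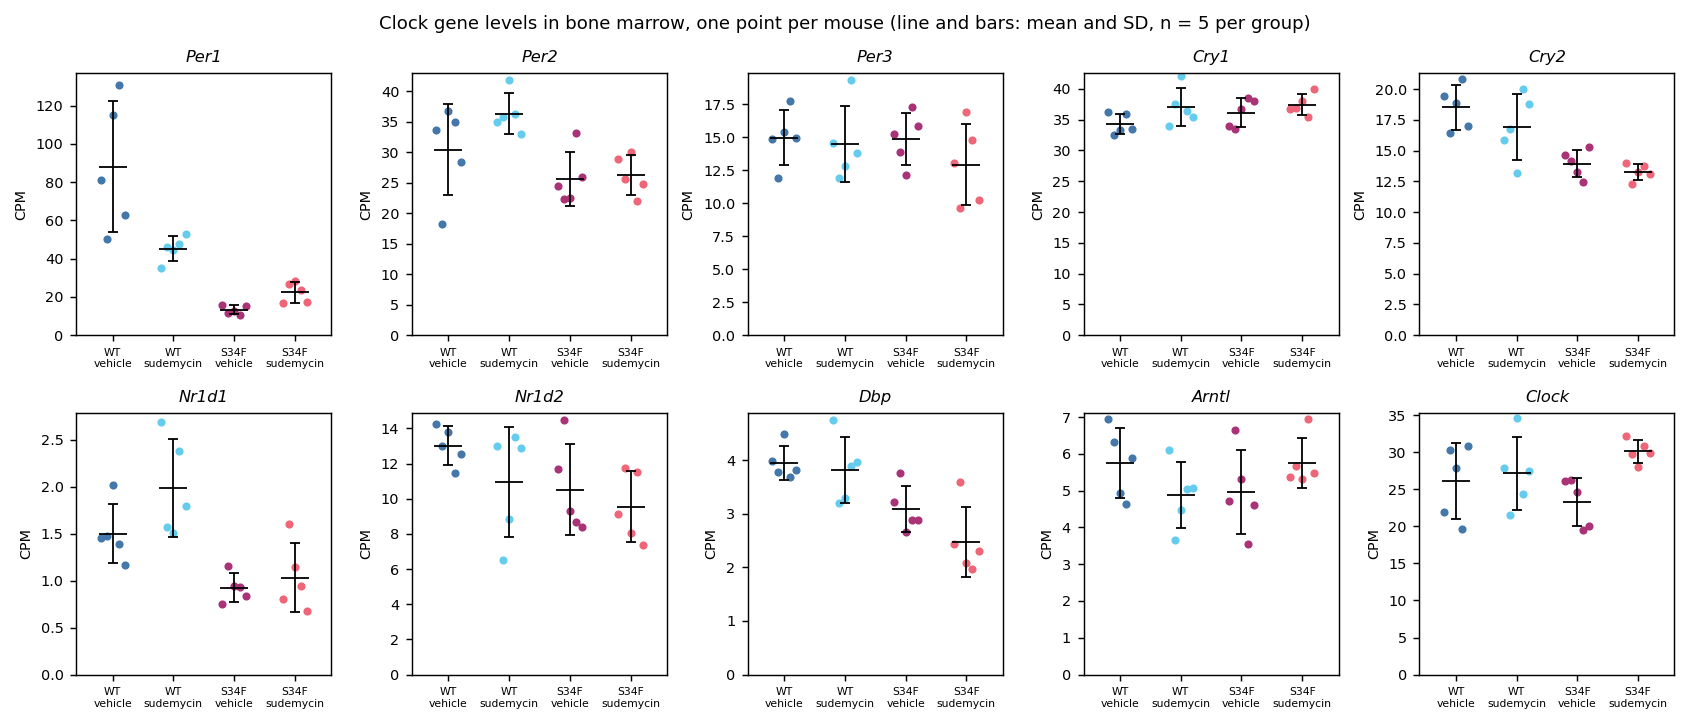
Level of each clock gene in CPM (y axes from 0) in the 4 groups, 1 point per mouse, with the mean and SD of the 5 mice as a line and bars. Per1 falls from a mean of 88.1 CPM in U2AF1(WT) with vehicle to 13.4 CPM in U2AF1(S34F) with vehicle, while Cry1 stays between 32.6 and 42.0 CPM in every mouse.

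Per1, which encodes a repressor of CLOCK and BMAL1, lies on chromosome 11 from 68908719 to 68923462 on the plus strand (NCBIM37, the mm9 assembly). In U2AF1(WT) with vehicle the 5 mice were at 81.2, 50.3, 115, 131 and 62.9 CPM. With sudemycin D6 the U2AF1(WT) mice were at 34.9, 46.1, 44.3, 47.9 and 52.7 CPM. These 2 groups overlapped only in the highest drug mouse and the lowest vehicle mouse, and the mean fell from 88.1 ± 34.2 to 45.2 ± 6.54 CPM (SD, n = 5). In U2AF1(S34F) with vehicle the values were 16.05, 11.9, 12.9, 10.8 and 15.5 CPM, all below every U2AF1(WT) mouse. In U2AF1(S34F) with sudemycin D6 they were 16.7, 26.7, 28.5, 23.4 and 17.1 CPM, all above every U2AF1(S34F) vehicle mouse and all below every U2AF1(WT) mouse.

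As fitted log2 fold changes, Per1 differed by −0.98 (SE 0.23) with the drug in U2AF1(WT) and by 0.74 (SE 0.17) with the drug in U2AF1(S34F). Between genotypes it differed by −2.73 (SE 0.27) under vehicle, a level 6.62 times lower in U2AF1(S34F), and by −1.01 (SE 0.16) under sudemycin D6, 2.01 times lower. The drug thus went with a narrower gap between the genotypes, and the difference between the drug effects was 1.71 on the log2 scale (SE 0.31). These are the values that singled Per1 out. The difference ran along the whole gene, in that all 26 annotated Per1 junctions had fewer reads in U2AF1(S34F) than in U2AF1(WT) under vehicle.

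To set Per1 against the rest of the clock, for each mouse the mean log2 CPM of the other 9 members was subtracted from that of Per1. The difference averaged 2.86 ± 0.53 in U2AF1(WT) with vehicle, 1.97 ± 0.31 in U2AF1(WT) with sudemycin D6, 0.48 ± 0.28 in U2AF1(S34F) with vehicle and 1.20 ± 0.30 in U2AF1(S34F) with sudemycin D6 (SD, n = 5 each). The range was 2.25 to 3.56 in the first of these groups and 0.16 to 0.75 in the third, which did not overlap. It was 1.47 to 2.25 in U2AF1(WT) with sudemycin D6, whose highest mouse lay just above the lowest vehicle mouse, and 0.81 to 1.55 in U2AF1(S34F) with sudemycin D6. The mean of the other 9 hardly differed with the drug, at 3.51 and 3.52 in U2AF1(WT) and 3.25 and 3.26 in U2AF1(S34F). With only Arntl and Clock as the reference, the mean in U2AF1(S34F) with sudemycin D6 was 0.74. Both of those genes had their highest group mean there, although for Arntl (5.75 CPM) it equalled that of U2AF1(WT) with vehicle to 3 digits.

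**Figure D2:**
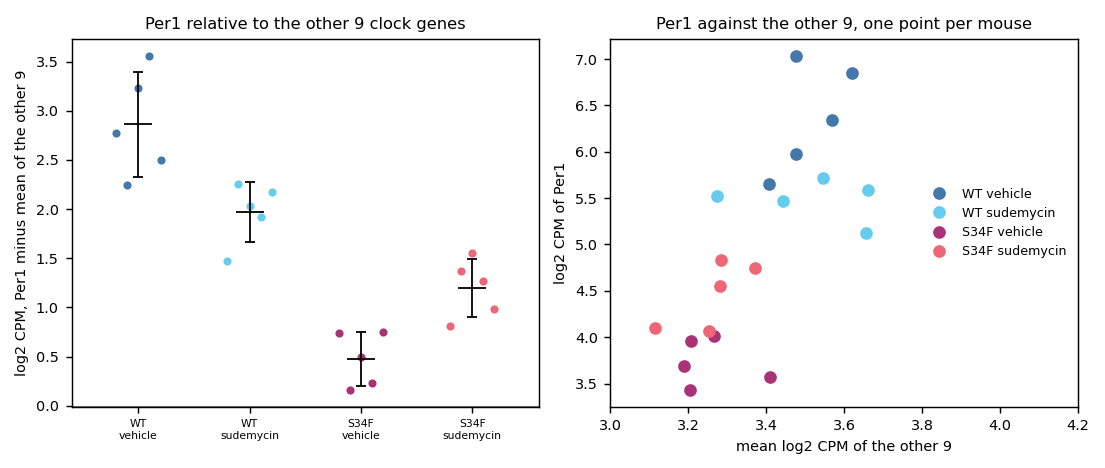
Left, log2 CPM of Per1 minus the mean log2 CPM of the other 9 clock genes in each mouse, with group mean and SD. Right, Per1 (y axis, log2 CPM) against the mean of the other 9 (x axis, log2 CPM), 1 point per mouse, coloured by group; the groups are spread along the Per1 axis from 3.73 to 6.37 in their means and only from 3.25 to 3.52 along the other.

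Sudemycin D6 in U2AF1(WT) marrow left the other 9 clock genes without a call. Of all genes tested, 453 of 14763 (3.07%) passed a false discovery rate (FDR) of 10% by edgeR's quasi-likelihood test. Of the other 9 clock genes 0 passed, 0 had an unadjusted p below 0.05, and DESeq2 also called 0. The largest differences were in Nr1d1, at 1.46, 1.48, 2.02, 1.39 and 1.17 CPM with vehicle and 2.69, 1.57, 1.504, 2.38 and 1.80 CPM with drug (log2 fold change 0.39, SE 0.24, adjusted p = 0.52), and in Nr1d2 (−0.27, SE 0.18, adjusted p = 0.58). Their groups overlapped. The median log2 fold change of the 9 was −0.06, beside 0.00 (0.00407) over all genes.

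In U2AF1(S34F) marrow, sudemycin D6 raised Clock. Clock encodes the histone acetyltransferase partner of BMAL1 and lies on chromosome 5 from 76639992 to 76733817 on the minus strand. Its level was 26.1, 26.3, 24.7, 19.5 and 20.1 CPM with vehicle and 32.2, 29.8, 28.0, 30.8 and 29.9 CPM with drug, so that every drug mouse exceeded every vehicle mouse. The log2 fold change was 0.37 (SE 0.09), or 1.29-fold, with an adjusted p of 0.035, and 1 of the 9 was called against 10.8% of all genes (1588 of 14714). Over the alternatives run its adjusted p ranged from 0.0044 (DESeq2) to 0.14, the latter in a single model of all 20 mice, where it was not called. In U2AF1(WT) the drug difference of Clock was 0.03 (SE 0.15), and the difference between the 2 drug effects was 0.32 (SE 0.18, adjusted p = 0.75), so a genotype-specific effect was not shown. Arntl, the partner of Clock, averaged 4.96 ± 1.14 CPM with vehicle and 5.75 ± 0.68 with drug in U2AF1(S34F) (log2 fold change 0.21, SE 0.16, adjusted p = 0.46). Dbp was at 3.21, 3.77, 2.66, 2.88 and 2.89 CPM with vehicle and 2.44, 3.597, 2.08, 1.96 and 2.30 CPM with drug (−0.32, SE 0.18, adjusted p = 0.33). Lineage markers moved in the same comparison: the summed eosinophil and basophil genes (Epx, Prg2, Mcpt8) were at 196 to 276 CPM with vehicle and 119 to 162 CPM with drug, and Prg2, 1 of these 3, was called lower (−1.03). Of the erythroid genes 1 of 4 was called lower (Epor, −1.29), of the megakaryocyte genes 2 of 3 (Pf4, −0.94, and Itga2b, −0.67) and of the T and NK genes 1 of 3 (Cd3g, −0.85). Of the monocyte or macrophage genes 1 of 4 was called higher (Ly6c2, 0.29). Of the 4 stromal or endothelial genes and of the 6 neutrophil genes 0 were called, with 0 at an unadjusted p below 0.05. In U2AF1(WT) the summed eosinophil and basophil genes were at 227 to 378 CPM with vehicle and 167 to 240 CPM with drug. Of these 3 genes 2 were called lower there. The study reported that the drug, given in this way, caused no marked shift in mature marrow lineages of either genotype. The part of these markers in the Clock difference was not tested.

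Between genotypes under vehicle, 4 of the 9 other members were lower in U2AF1(S34F) and 0 were higher, where 39.5% of all genes (5851 of 14817) were called in either direction. Over all genes 2921 were higher and 2930 lower. Cry2, a cryptochrome that represses CLOCK and BMAL1, was at 19.5, 16.4, 18.8, 20.9 and 16.97 CPM in U2AF1(WT) and 14.6, 14.2, 13.2, 12.45 and 15.3 CPM in U2AF1(S34F). The groups did not overlap (log2 fold change −0.42, SE 0.09, adjusted p = 0.0049). Nr1d1 was at 0.749, 1.16, 0.941, 0.937 and 0.840 CPM in U2AF1(S34F), below every U2AF1(WT) vehicle mouse (−0.71, SE 0.21, adjusted p = 0.022). Dbp, with 3.98, 3.78, 4.49, 3.69 and 3.81 CPM in U2AF1(WT), was below every one of these in 4 of the 5 U2AF1(S34F) mice, at 3.21, 3.77, 2.66, 2.88 and 2.89 CPM (−0.37, SE 0.14, adjusted p = 0.059). Nr1d2 overlapped between the genotypes, at 14.3, 12.98, 13.8, 11.5 and 12.6 CPM against 11.7, 14.5, 9.32, 8.68 and 8.37 CPM (−0.32, SE 0.14, adjusted p = 0.093). The Dbp and Nr1d2 calls were lost in a single model of all 20 mice (adjusted p = 0.10 and 0.23), Nr1d2 also without 8 of the 10 mice taken singly (0.11 to 0.21), and Dbp without U2AF1(WT) replicate 1 or 3 or U2AF1(S34F) replicate 5 or 11 (0.10 to 0.15). Without U2AF1(WT) replicate 2, at 18.2 CPM the lowest Per2 value of all mice, Per2 was called (−0.39, adjusted p = 0.021). Per2, Per3, Cry1, Arntl and Clock had log2 differences between −0.25 and 0.06, with adjusted p-values from 0.30 to 0.92.

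Under sudemycin D6 the genotype comparison again called 4 of the 9, all lower in U2AF1(S34F), with 36.8% of all genes called (5402 of 14677). Per2, the period protein that carries much of the rhythm, was at 34.9, 35.8, 41.7, 36.2 and 32.9 CPM in U2AF1(WT) and 28.8, 25.6, 29.999, 21.9 and 24.8 CPM in U2AF1(S34F), with no overlap (−0.47, SE 0.10, adjusted p = 0.0040). Cry2 (−0.35, SE 0.11, adjusted p = 0.032), Nr1d1 (−0.95, SE 0.27, adjusted p = 0.022) and Dbp (−0.63, SE 0.20, adjusted p = 0.032) were lower as they were under vehicle. The mice differ from those of the vehicle comparison but may share donor pools with them. Genotype and sex pattern also coincide in both, so this is not an independent repeat. Cry2 was at 15.9, 16.7, 13.2, 20.1 and 18.8 CPM in the U2AF1(WT) drug mice and 14.0, 12.3, 13.3, 13.7 and 13.1 CPM in the U2AF1(S34F) drug mice, and these groups overlapped through 1 U2AF1(WT) mouse. Dbp (4.74, 3.21, 3.30, 3.88 and 3.96 CPM in the U2AF1(WT) drug mice) also overlapped, as did Nr1d1. Nr1d2 did not pass here (−0.20, SE 0.21, adjusted p = 0.50). Cry1, Per3, Arntl and Clock had adjusted p-values between 0.28 and 0.94. Whether the Per2 genotype difference depended on the drug was tested by the interaction term (−0.23, SE 0.21, adjusted p = 0.88).

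**Figure D3:**
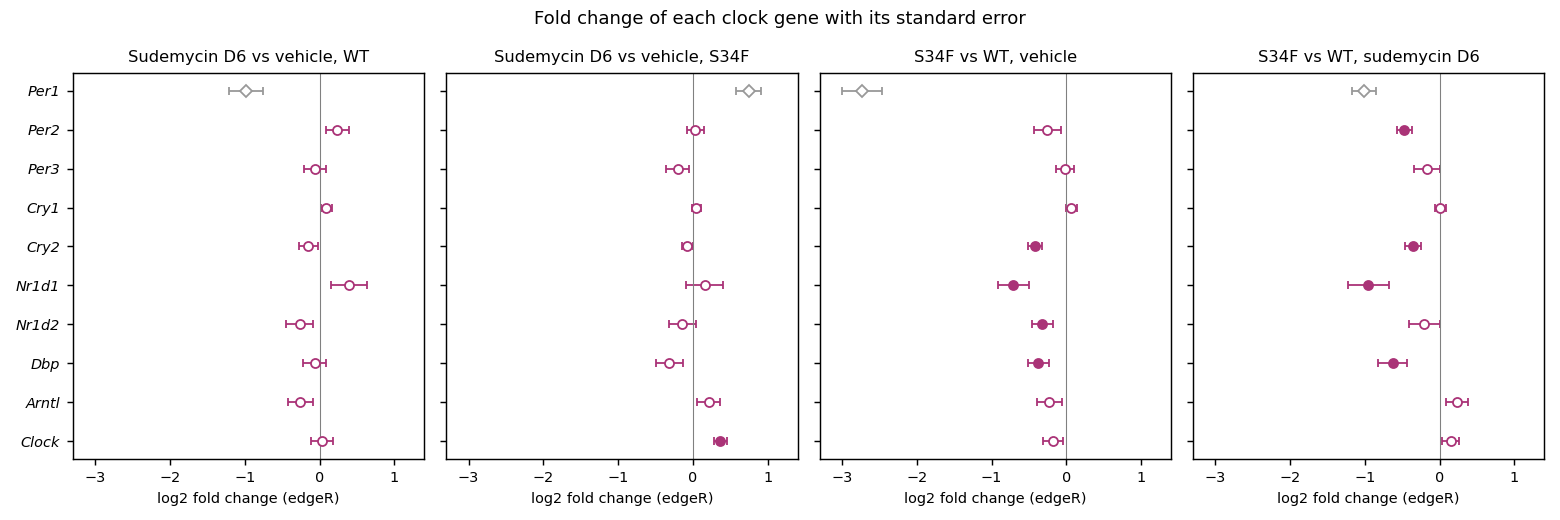
Log2 fold change (x axis, edgeR) with its standard error for each clock gene in 4 comparisons; filled circles passed an FDR of 10%, open circles did not, and the grey diamonds are Per1, shown with no call. Filled symbols are Clock in the drug comparison within U2AF1(S34F), and Cry2, Nr1d1, Dbp with Nr1d2 or Per2 on the lower side of the genotype comparisons.

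The lower values in U2AF1(S34F) stand beside a marrow that also differed in lineage markers. Summed neutrophil genes were at 29984 to 34445 CPM in U2AF1(WT) and 43193 to 67820 CPM in U2AF1(S34F) under vehicle, with 3 of 6 called higher, S100a8 by 1.26 on the log2 scale. The monocyte receptor Csf1r was lower by −0.85, and 3 of the 4 monocyte or macrophage genes were called lower. Under sudemycin D6 neutrophil sums overlapped (28526 to 49771 and 36714 to 56418 CPM), 1 of 6 was called, and the erythroid genes Klf1 and Epor were lower by −1.34 and −1.54. The T cell gene Cd3e was lower in U2AF1(S34F) by −1.83 under vehicle and −1.86 under sudemycin D6, with 1 of the 3 T and NK genes called lower and 1 higher (Nkg7, 0.23) under vehicle, and 2 lower under the drug. Nkg7 made up most of their summed level, which ranged from 39.1 to 60.3 CPM over all mice. The B cell gene Cd79a was lower by −1.61 under sudemycin D6 (adjusted p = 0.019) and differed by −1.19 under vehicle (adjusted p = 0.14). Of the 4 genes of recipient stroma or endothelium (summed level 53.8 to 185 CPM), 2 were called lower and 1 higher under vehicle and 1 lower under sudemycin D6, with Col1a1 lower by −1.15 and −1.28. Summed megakaryocyte genes ranged from 18.6 to 58.3 CPM. The part of cell composition in the clock gene differences was not tested.

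Comparing U2AF1(S34F) mice on drug with U2AF1(WT) mice on vehicle, the widest contrast of the design, 50.2% of all genes were called (7415 of 14761) and 4 of the 9 other clock genes, all lower. They were Cry2 (−0.48, SE 0.09, adjusted p = 0.00091), Dbp (−0.67, SE 0.17, adjusted p = 0.0066), Nr1d2 (−0.45, SE 0.13, adjusted p = 0.015) and Nr1d1 (−0.54, SE 0.25, adjusted p = 0.094). The Nr1d1 call was lost without any mouse but U2AF1(WT) replicate 5 or U2AF1(S34F) replicate 6 (0.10 to 0.22). This comparison reuses the U2AF1(WT) vehicle mice and the U2AF1(S34F) drug mice, so it does not repeat the others independently. Arntl had a log2 fold change of 0.00 (SE 0.14, adjusted p = 1.0) and Clock was at 0.20 (SE 0.12, adjusted p = 0.17). The interaction of genotype and drug called 2 of 15392 genes (0.0130%) by edgeR and 0 of the other 9 clock genes, with 0 at an unadjusted p below 0.05 and 0 by DESeq2. The interaction values nearest to a call were Arntl (0.45, SE 0.23, adjusted p = 0.69) and Clock (0.32).

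Within groups, pairs of clock genes were compared from mouse to mouse, and those with the highest and lowest values of all pairs are given. After each group's mean was removed, the log2 CPM of Nr1d2 and Arntl had a Pearson r of 0.72 over the 20 mice, Nr1d1 and Dbp 0.68, Nr1d2 and Dbp 0.64, and Nr1d1 and Nr1d2 0.59. Cry1 and Nr1d2 had −0.68, Per2 and Arntl −0.57. Per1 had its highest values with Cry2 (0.48) and Per2 (0.47) and its lowest with Clock (−0.41). These are descriptions over points that share libraries and depth, and Nr1d1 and Dbp rest on few reads.

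The 5 genes whose pattern over the 20 mice was most like that of Per1, among 12226 others with a mean of at least 1 CPM, were Gm11737 (r = 0.95), Ppm1h (0.94), Fndc3b (0.94), Notch1 (0.94) and Rreb1 (0.94). The nearest clock gene was Cry2 (r = 0.80), which these 5 exceed by the way they were picked. All these values take in the group pattern that chose Per1. Ppm1h, a protein phosphatase, averaged 77.9, 68.5, 51.3 and 55.7 CPM in the order U2AF1(WT) vehicle, U2AF1(WT) drug, U2AF1(S34F) vehicle and U2AF1(S34F) drug. Notch1, the transmembrane receptor, averaged 343, 314, 178 and 190 CPM. Gm11737 spanned a range nearer to that of Per1, at 4.17, 2.75, 0.838 and 1.20 CPM. With group means removed, the r to Per1 was 0.83 for Notch1 and 0.47 to 0.64 for the other 4.

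Of 30 further clock genes (paralogues, repressors, kinases and ubiquitin ligases of clock proteins), 28 could be tested under vehicle, and 15 of the 28 were called between genotypes, 8 lower and 7 higher in U2AF1(S34F), where 39.5% of all genes were called. Several of the lower genes encode transcriptional regulators. Ciart, a repressor of CLOCK and BMAL1, differed by −1.52 (SE 0.25, adjusted p = 0.00077), Arntl2, the paralogue of Arntl, by −1.53 (SE 0.49, adjusted p = 0.030), Nfil3, which opposes Dbp at the D-box, by −0.54 (SE 0.09, adjusted p = 0.00069), Bhlhe40, an E-box repressor, by −0.46 (SE 0.14, adjusted p = 0.023) and Tef, a relative of Dbp, by −0.43 (SE 0.13, adjusted p = 0.023). Btrc (−0.51) and Gsk3b (−0.42), which act on the stability of clock proteins, and Por (−0.24) were the others. The higher genes were Fbxl21 (0.95), Csnk2a1 (0.38), Tipin (0.33), Nampt (0.29), Timeless (0.23), Ddb1 (0.22) and Nono (0.21). Fbxl21 rested on only 3 to 22 reads a mouse in U2AF1(WT) and 15 to 37 in U2AF1(S34F), and Arntl2 on 15 to 82 and 7 to 25. In the drug mice Arntl2 rested on 27 to 123 and 6 to 16 reads. Under sudemycin D6, 14 of 27 were called, 9 lower and 5 higher, beside 36.8% of all genes, with Ciart (−0.87), Arntl2 (−2.52), Bhlhe40 (−0.61), Bhlhe41 (−1.19), Tef (−0.52), Btrc (−0.41), Por (−0.36), Gsk3b (−0.29) and Csnk1d (−0.17) lower, and Tipin, Ddb1, Csnk2a1, Csnk1a1 and Nono higher by 0.33, 0.29, 0.23, 0.23 and 0.22. In the contrast of both changes 17 of 28 were called, 11 lower and 6 higher, beside 50.2% of all genes, with Csnk1e (−0.33) and Sirt1 (0.22) among those not named above.

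With the drug in U2AF1(WT), 1 of 28 was called, beside 3.07% of all genes: Nfil3 (−0.47, SE 0.10, adjusted p = 0.027). In U2AF1(S34F) 2 of 27 were called, beside 10.8% of all genes. They were Nampt (−0.45, SE 0.08, adjusted p = 0.0067), the enzyme of NAD synthesis that clocks regulate, and Csnk1e (−0.28, SE 0.07, adjusted p = 0.047), a kinase of PER proteins. The median log2 fold change of the list was 0.01 and −0.03 in these comparisons and −0.00 (−0.00356) between genotypes under vehicle, close to those over all genes (0.00407, −0.00916 and 0.00207).

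Since Per1 also answers to signals outside the clock, genes that respond to the same signals were set beside it. These lists, like that of the further clock genes, were chosen with earlier results of these data known. Their p-values are therefore not an independent test. Of 12 CREB- or serum-responsive genes, 11 were lower and 1 higher in U2AF1(S34F) under vehicle, where 39.5% of all genes were called. The median log2 fold change was −1.75, beside 0.00207 over all genes. Fosb (−3.41, SE 0.27), Nr4a1 (−2.86, SE 0.22) and Egr1 (−2.61, SE 0.35), all immediate early transcription factors, had the largest differences, with adjusted p-values of 3.12e-05, 1.46e-05 and 0.00084. The gene that was higher was Crem (0.34, adjusted p = 0.095), a CREB-family regulator with repressor isoforms. Under sudemycin D6, 11 of 12 were lower (median −1.23), beside 36.8% of all genes called, led by Nr4a1 (−2.34), Egr1 (−2.24) and Fosb (−1.97). In the contrast of both changes 11 were lower, beside 50.2% of all genes called, led by Egr1 (−4.48), Fosb (−3.48) and Fos (−2.77).

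The drug lowered part of this list in both genotypes. In U2AF1(WT), 6 of 12 fell, beside 3.07% of all genes called in either direction. Egr1 (−2.27, SE 0.29, adjusted p = 0.0027) and Fosb (−1.53, SE 0.21, adjusted p = 0.0027) changed most. Nr4a2 (−1.49, SE 0.33, adjusted p = 0.039) was next. In U2AF1(S34F), 4 of 12 fell, beside 10.8% of all genes called in either direction. They included Egr1 (−1.88, SE 0.27, adjusted p = 0.0039) and Btg2 (−0.80, SE 0.09, adjusted p = 0.0011). Ier2 (−0.58, SE 0.08, adjusted p = 0.0022) and Junb (−0.43, SE 0.11, adjusted p = 0.044) were the others. Junb is named because only 4 were called. Of the list 0 were called higher in either genotype. Per1 was higher with the drug in those same U2AF1(S34F) mice. Dusp1, a phosphatase on both this list and the next, was lower with the drug in U2AF1(WT) (−1.14) and between genotypes (−2.15 under vehicle and −0.94 under sudemycin D6).

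**Figure D4:**
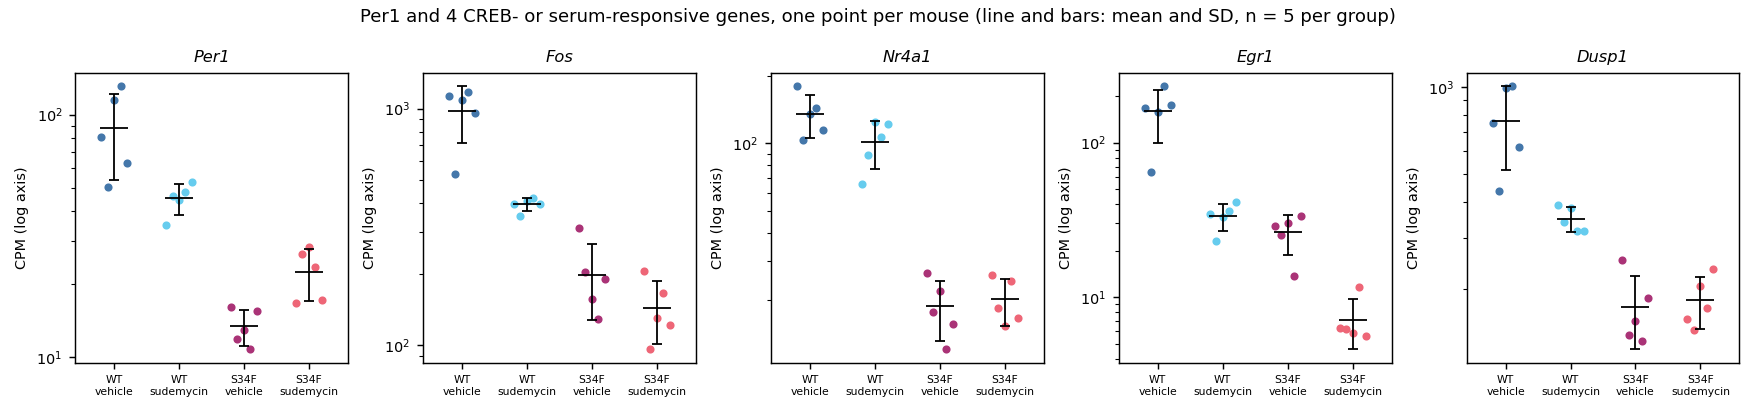
Level in CPM (log axes) of Per1 and of Fos, Nr4a1, Egr1 and Dusp1 in each mouse of the 4 groups, with group mean and SD (n = 5). Each of the 5 genes has its lowest group mean in a U2AF1(S34F) group. With the drug in U2AF1(S34F), Egr1 is lower (−1.88 on the log2 scale) while Per1 is higher (0.74). Fos, Nr4a1 and Dusp1 were not called there. Their means were 198, 18.8 and 173 CPM with vehicle and 143, 20.1 and 183 CPM with drug.

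Of 12 glucocorticoid-responsive genes, 6 were called between genotypes under vehicle, 5 lower and 1 higher, beside 39.5% of all genes. Their median log2 fold change was −0.25, beside 0.00207 over all genes. Dusp1, Ddit4 (−1.26) and Zbtb16 (−0.92) had the largest differences. Under sudemycin D6, 5 were lower, beside 36.8% of all genes called, led by Mt2 (−1.30), Zbtb16 (−1.17) and Dusp1. In the contrast of both changes 6 were lower and 1 higher, beside 50.2% of all genes called. Dusp1 (−2.06), Zbtb16 (−1.04) and Ddit4 (−0.99) led there. With the drug, 2 of 12 were called in each genotype, beside 3.07% of all genes in U2AF1(WT) and 10.8% in U2AF1(S34F). In U2AF1(WT), Fkbp5, a chaperone of the glucocorticoid receptor, rose (0.65, SE 0.12, adjusted p = 0.014) and Dusp1 fell. In U2AF1(S34F), Klf9 rose (0.54, SE 0.17, adjusted p = 0.077) and Txnip fell (−0.39, SE 0.09, adjusted p = 0.029). The interaction called 0 genes of either list by edgeR, with 5 and 4 at an unadjusted p below 0.05.

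Because the study changed the splicing machinery, use of each splice junction was tested against the other junctions of its gene (edgeR diffSpliceDGE, annotated junctions). Of the clock gene junctions, 142 were tested for the drug in U2AF1(WT) and 134 in U2AF1(S34F), and 0 were called in either, with 2 and 3 at an unadjusted p below 0.05 and 0 by limma. Over all genes 11 of 116447 (0.00945%) and 23 of 116266 (0.0198%) junctions were called. Between genotypes 2 of 136 were called under vehicle, where 1.57% of all junctions were (1828 of 116697), and 2 of 135 under sudemycin D6, where 2.26% were (2607 of 115505). These shares are close to the background. Of the 2 under vehicle, 1 is in Per1, which was chosen by its level, and is a description only. Nr1d1 and Dbp had too few junction reads to be tested in 3 of the 4 comparisons.

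The called junctions were Cry1 intron 2 under vehicle and Cry1 introns 2 and 6 under sudemycin D6. The downstream acceptor of Per1 intron 5, counted under vehicle, is given as a description only. The acceptor sites of these junctions are shown because U2AF1 reads the last bases of the intron. Beside them stand the upstream acceptor of Per1 intron 5, with which the downstream one competes, and the acceptor of Per1 exon 17. Neither of the latter was called. Each is written in the direction of the gene (NCBIM37), the first 20 bases intronic and the last 10 exonic, with the last 3 bases of the intron in capitals. The Per1 sites are the upstream and downstream acceptors of intron 5 at chr11:68915157-68915186 and chr11:68915217-68915246 (plus strand), 60 bases apart, and the acceptor of exon 17 at chr11:68918116-68918145. The Cry1 sites are those of introns 2 and 6, at chr10:84614091-84614120 and chr10:84609391-84609420 (minus strand).
Per1 intron 5 upstream acceptor: cggtcttggtctcattcTAGgacaccttct
Per1 intron 5 downstream acceptor: ttgtctatatttcggagCAGgcaggtgtcc
Per1 exon 17 acceptor: agtgccgtctctccgcaCAGatccgtcgtc
Cry1 intron 2 acceptor: ccccttttgtcttgtttTAGgaatggaaca
Cry1 intron 6 acceptor: tttttgttttttaatcgCAGgtaaagaaga

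In the base before the AG, the called Cry1 sites have T at intron 2 and C at intron 6. The downstream Per1 site has C, the upstream Per1 site, which was not called, has T, and that of exon 17 has C. Among all 148 annotated acceptors of the clock genes 56.1% have C, 34.5% T and 8.78% A at that place, beside 64%, 29.7% and 5.86% of 162670 acceptors over all genes.

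In Per1, reads that joined exon 5 to the downstream acceptor instead of the upstream one made up 10.7, 15.7, 7.77, 6.55 and 3.77% in the U2AF1(WT) vehicle mice (132 of 1580 reads in all) and 0 of 258 reads in the U2AF1(S34F) vehicle mice, which allows a share of up to 1.16% over the group and of 4.62 to 7.69% in a single mouse (counting error only). No p-value is given for Per1, and its call, which is part of the count above, was lost by limma and with any of the 5 U2AF1(S34F) vehicle mice left out. With 0 reads in U2AF1(S34F) with vehicle, the junction passed the count filter only through U2AF1(WT) with vehicle, where Per1 is highest. With sudemycin D6 the shares were 9.52, 0, 8.45, 0 and 10.6% in U2AF1(WT) and 0, 6.71, 7.45, 5.22 and 3.53% in U2AF1(S34F), where the junction had too few reads to be tested. The 0 values in U2AF1(WT) came from 209 and 187 reads.

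Exon 17 of Per1, whose acceptor is shown above, was skipped in some transcripts and is named here after its values were seen. The skipping junction took 59.4, 56.5, 55.4, 24.3 and 53.6% in U2AF1(WT) with vehicle, where the reads of the 2 including junctions were averaged. It took 5.80 to 31.1% in U2AF1(WT) with sudemycin D6, 0 to 31.6% in U2AF1(S34F) with vehicle and 0 to 38.1% in U2AF1(S34F) with sudemycin D6. The lowest of the U2AF1(WT) vehicle values lay inside each of these ranges. Between 11 and 181 reads stood behind each share. The most upstream of the annotated first exons of Per1 supplied 27.1, 25.8, 32.6, 34.7 and 28.2% of reads entering exon 2 in U2AF1(WT) with vehicle, 13.9 to 37.6% in U2AF1(WT) with drug, 13.3 to 41.2% in U2AF1(S34F) with vehicle and 38.0 to 44.6% in U2AF1(S34F) with drug. The 4 groups overlapped, except that the U2AF1(S34F) drug mice lay above every U2AF1(WT) mouse.

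In Cry1, a gene whose level was called in 0 of the comparisons, intron 2 took 5.83, 6.82, 5.08, 2.63 and 7.18% of the gene's junction reads in U2AF1(WT) with vehicle and 9.97, 9.88, 9.04, 8.90 and 8.83% in U2AF1(S34F) with vehicle, with no overlap. The log2 fold change of its use was 0.77 (adjusted p = 0.023). Under sudemycin D6 the shares were 7.96, 3.31, 4.98, 5.83 and 4.11% in U2AF1(WT) and 7.92, 7.81, 9.35, 6.44 and 10.3% in U2AF1(S34F) (0.67, adjusted p = 0.062), overlapping through 1 U2AF1(WT) mouse. Intron 6 took 4.99, 6.41, 4.89, 4.75 and 5.96% against 9.46, 9.29, 7.54, 10.5 and 7.98% under sudemycin D6 (0.73, adjusted p = 0.030), again with no overlap. Under vehicle its shares were 5.43, 6.86, 6.11, 4.66 and 5.92% in U2AF1(WT) and 9.17, 6.71, 5.61, 7.64 and 8.42% in U2AF1(S34F) (0.38, adjusted p = 0.52), which did not pass. The intron 2 call under vehicle was lost without U2AF1(WT) replicate 4 (adjusted p = 0.24), that under sudemycin D6 without U2AF1(WT) replicate 8 or 12 or U2AF1(S34F) replicate 2, 6, 9 or 12 (0.12 to 0.30), and the intron 6 call without U2AF1(S34F) replicate 2 or 10 (both 0.12). These are shares of a gene's junction reads rather than of transcripts, and between 1554 and 2760 such reads stood behind each.

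**Figure D5:**
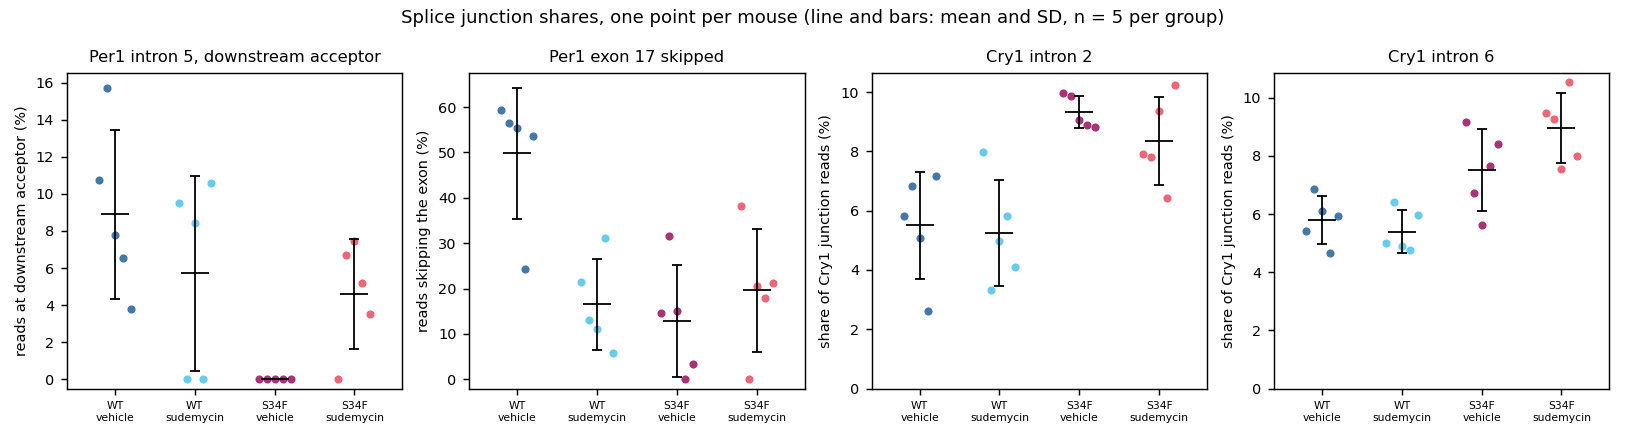
Share of reads (y axes, percent) in each mouse for the downstream acceptor of Per1 intron 5 (of both acceptors), for skipping of Per1 exon 17, and for introns 2 and 6 of Cry1 (of all annotated Cry1 junction reads), with group mean and SD. The downstream Per1 acceptor has 0 reads in all 5 U2AF1(S34F) vehicle mice, and Cry1 intron 2 lies at 8.83 to 9.97% there against 2.63 to 7.18% in U2AF1(WT) with vehicle.

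The promoters were read from RefSeq (GRCm38.p6, a different assembly from that of the counts), which held the 250 bases before the start of 9 of the 10 genes. The E-box CACGTG stood in those of Per1 and Cry1, beside 6.02% of all 32851 promoters. The D-box TTATGTAA stood in that of Per3, beside 0.819%. The cyclic AMP element TGACGTCA stood in 0 of the 9, beside 1.55%, and the AGGTCA core of the REV-ERB element in Per1, Nr1d2 and Clock, beside 14% of all promoters. Both strands were searched, a match is a description of these letters only, and clock elements also lie outside such short windows. The E-boxes of Per1 (plus strand, chr11:69098771-69098800, 160 bases before the start) and Cry1 (minus strand, chr10:85185097-85185126, 54 bases before it) are shown in 30 bases, in capitals, since they belong to the most and the least variable clock gene in this marrow.
Per1 promoter: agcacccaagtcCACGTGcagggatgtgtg
Cry1 promoter: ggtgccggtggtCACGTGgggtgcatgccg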

How the data were processed

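The members and gene lists were chosen with earlier results of these data known. Per the labels, stranded, ribosomal RNA-depleted libraries were sequenced as pairs of 126 bp reads, and the authors aligned them to mm9 with TopHat2 (version 2.0.8, from the submitters' processing notes). They deposited whole-number counts per Ensembl gene and per splice junction. The counting program is not given in the sources used here. Groups came from the sample titles. Each pairwise comparison was fitted on its own 10 mice with edgeR (version 4.0.16) on the deposited counts: filterByExpr, TMM scaling, robust quasi-likelihood F-tests and Benjamini-Hochberg adjustment over all genes tested, at an FDR of 10%. The interaction used all 20 mice. SE is the absolute log2 fold change over the root of F. CPM per mouse used 1 TMM scaling of the 20 mice, and log2 CPM a prior count of 2. Junctions annotated at both ends and assigned to 1 gene were tested with diffSpliceDGE. Its coefficients were converted to log2. An intron number refers to the transcript of the gene with the most exons. Alternatives were DESeq2 (version 1.42.0), its size factors in edgeR, other count filters, an FDR of 5% and a single model of all mice. Others were the replicate number as a block in the mice that share one, limma (version 3.58.1) with voom for junctions, and leaving out each mouse. The scripts were tested on simulated data. P-values measure the spread between mice of a group, some of which share donor pools. The text names all 10 members, listed clock genes called in a comparison, the 3 largest of each input list in a called comparison, the 5 genes most like Per1 and called member junctions. A few listed genes are not reported here by name, nor are B cell marker sums.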

Additional observations from a re-analysis of the deposited data

Results flagged for a closer look

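Per1 is listed first because every U2AF1(WT) mouse on sudemycin D6 lay below the mean of its vehicle group and every U2AF1(S34F) mouse on the drug lay above the mean of its own. The mean log2 CPM differences were −0.88 (5 of 5 mice below) and 0.73 (5 of 5 above), which are 1.61 apart. The difference was not tested here, since this pattern chose the gene. Of the other 9 members none showed such opposite directions: Arntl was below the vehicle mean in 4 of 5 U2AF1(WT) mice and above it in 5 of 5 U2AF1(S34F) mice.

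Of 44 groups of values examined for a mouse that stands apart (10 genes and the Per1 difference in 4 groups), 1 held one, where chance gives about 1 in 20. Arntl in U2AF1(S34F) with sudemycin D6, replicate 10, was at 6.95 CPM, with the other 4 mice at 5.31 to 5.66 CPM.

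Some clock gene junctions outside the annotation, which no comparison used, had 0 reads in the 5 U2AF1(WT) vehicle mice and reads in at least 3 mice of another group, with more than 3 reads in that group in all. Since these 7 were picked for having no reads in that group, the reads elsewhere follow from the choice. The same selection found 4 junctions with 0 reads in U2AF1(S34F) with vehicle, 4 in U2AF1(WT) with sudemycin D6 and 2 in U2AF1(S34F) with sudemycin D6. The libraries also differed in depth, at 41145892 to 53492246 gene counts in U2AF1(WT) with vehicle and 49926328 to 62138138 in U2AF1(S34F) with vehicle. In Clock, a pair of neighbouring junctions (chr5:76695914-76697798 and chr5:76697872-76702984) had 17 and 20 reads in U2AF1(S34F) with vehicle, 17 and 18 in U2AF1(S34F) with sudemycin D6, and 5 and 2 in U2AF1(WT) with sudemycin D6. Another junction of Clock (chr5:76666187-76674221) had 10 reads in U2AF1(S34F) with vehicle and 5 with the drug. Per3 (chr4:150403014-150406022) had 16 reads in U2AF1(S34F) with vehicle, and 9 in each drug group. Nr1d2 (chr14:19049308-19054501) had 10 in U2AF1(S34F) with vehicle and 4 in each drug group. Arntl (chr7:120447926-120449517) had 13 reads in U2AF1(S34F) with sudemycin D6, 11 with vehicle and 5 in U2AF1(WT) with the drug. Cry1 (a junction whose lower end is at 84617317 on chromosome 10) had 10, 7 and 5 in the same order. Reads outside the annotation made up 0.309 to 3.11% of the junction reads of a clock gene.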

How the results depend on the processing

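No clock gene changed direction where it was called. Of 963 recomputed fold changes of the 9 members other than Per1, 923 kept their status, called or not called. Another 32 called values missed the threshold and 8 uncalled values passed it. In the main fits at most 4 of the 9 were called in any comparison. Most of the 923 are therefore values that were not called in either fit, some with a changed sign, and say little about the stability of the calls. The counts of called members that follow cover all 10, and the part of Per1 in them, whose level chose it, says nothing about stability. With the drug in U2AF1(WT) the count, 1, became 0 with no count filter or at an FDR of 5%, and 0 to 1 leaving out a mouse, while 0 of the other 9 were called under any alternative. With the drug in U2AF1(S34F) it went from 2 to 1 in a single model of all mice, where Clock was lost, and was 2 to 3 leaving out a mouse. Between genotypes under vehicle it went from 5 to 3 with no filter, at an FDR of 5% and in a single model, where Dbp and Nr1d2 were lost, and was 3 to 5 leaving out a mouse. The same pair was lost without U2AF1(WT) vehicle replicate 1 or 3, or U2AF1(S34F) vehicle replicate 5 or 11, and Nr1d2 without 8 of the 10 mice. Under sudemycin D6 the count was 5 to 6 leaving out a mouse. In the contrast of both changes it was 4 to 6, with Nr1d1 lost without any of 8 mice (adjusted p = 0.10 to 0.22), and also with no filter or at an FDR of 5%. The interaction count went from 0 to 1 with DESeq2 and a minimum count of 50, and was 0 to 1 leaving out a mouse, while 0 of the other 9 were called under any alternative. All genes called with the drug in U2AF1(WT), 453, ranged from 191 (without vehicle replicate 1) to 1072 (single model); in U2AF1(S34F), 1588, from 788 (single model) to 2311 (DESeq2); in the interaction, 2, from 2 to 116 (DESeq2). The cause was not tested.

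Member junctions called between genotypes under vehicle, 2 with that of Per1, became 1 with a minimum count of 50 and 1 to 3 leaving out a mouse. Under sudemycin D6, 2 became 5 by limma and 0 to 4 leaving out a mouse, with 0 without U2AF1(S34F) replicate 2. Per1 relative to the other 9 was 2.69 to 3.01, 1.90 to 2.09, 0.41 to 0.56 and 1.11 to 1.30 leaving out a mouse of the group in the order U2AF1(WT) vehicle, U2AF1(WT) drug, U2AF1(S34F) vehicle and U2AF1(S34F) drug, and the last became 0.74 with Arntl and Clock as the reference.

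Some mice of compared groups share a replicate number, 3 numbers under vehicle and 4 under sudemycin D6. The deviations of same-numbered mice from their group means had r = −0.07 to 0.19 under vehicle and −0.18 to 0.37 under sudemycin D6 (12227 genes). Mice of different numbers were not compared in this way, so these values cannot decide whether the number marks a pairing. The labels name no pairing, and the main fits used none. The fit with the replicate block kept only mice with a shared number, 3 of each group under vehicle and 4 of each under sudemycin D6. In these smaller sets the members called were 3 under vehicle and 5 under sudemycin D6. Of the other 9 under vehicle, Nr1d1 (adjusted p = 0.12), Dbp (0.19) and Nr1d2 (0.22) were lost, Cry2 was still called and Per2 was also called (0.0089). The smaller set leaves out U2AF1(WT) vehicle replicate 2, without which Per2 was called with no block too. The parts of the block and of the fewer mice in these changes cannot be told apart. No paired analysis was possible for the drug comparisons because their groups share no number. Depth limits Nr1d1 and Dbp most, and Per1 junctions in U2AF1(S34F).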
